A study of Danio rerio with 16 samples.

Results

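The comparison described here is TCDD against DMSO in zebrafish embryos of a wfikkn1 mutant line, across all expressed genes. It rests on 4 mutant libraries exposed to TCDD and 4 mutant libraries exposed to DMSO, chosen by their labels, out of 14 libraries in the count table. The product of wfikkn1 is secreted and is known from mammals as a binder and inhibitor of myostatin. Mutant embryos received 1 ng/mL TCDD (2,3,7,8-tetrachlorodibenzo-p-dioxin) or 0.1% DMSO, the vehicle, for 1 h starting at 4 hours post fertilization (hpf), were rinsed, and were collected whole at 48 hpf. The Tropical 5D wild type served as the other line and received the same exposures, with 3 libraries per exposure analysed here. Each library came from a pool of 9 embryos kept in a dish of its own. The labels call the line a mutant and give neither the lesion nor its zygosity, and a pool of whole embryos does not tell fewer cells of a type apart from less RNA per cell.

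TCDD binds the aryl hydrocarbon receptor (AHR), which then enters the nucleus, pairs with ARNT and binds DNA near its target genes. The best known targets are cytochrome P450 genes of family 1, conjugating enzymes and the AHR repressors, which feed back on the receptor. In zebrafish, ahr2 is the receptor that carries most of the toxicity of TCDD, which is known to impair the heart, the jaw cartilage and regenerating fins.

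Total counts ran from 20597475 to 26884477 in the 8 mutant libraries. The table holds 32520 genes, of which 20098 passed the filter on low counts. wfikkn1 (ENSDARG00000101364) held 0, 0, 4 and 3 counts in the DMSO libraries and 14, 15, 21 and 22 counts in the TCDD libraries, so that the gene itself rose with TCDD in the mutants, by 3.25 ± 0.62 (adjusted p = 7.74e-04). Levels below are CPM, read counts scaled to library size with TMM, and fold changes are log2 values ± SE. A gene is called when its p from edgeR's quasi-likelihood test, adjusted over the 20098 genes, lies under 0.05. Values per library are given in the order of replicates 1 to 4.

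The libraries also differed along an axis that group membership did not define. The first axis of variation within groups held 28.8% of the within-group variance. The mutant libraries scored 25.4, 13.6, -8.48 and 30.4 on it with DMSO and -26.9, -28.9, -11.1 and -25.5 with TCDD. The exposure groups did not overlap on this axis, and DMSO replicate 3 lay nearest to the TCDD libraries. On an axis taken from the mutant libraries alone the exposure groups did overlap. Scores there were 21.9, 10.9, -16.3 and 31.5 with DMSO and -18.9, -15.3, 1.92 and -15.8 with TCDD. Many genes move with the score over all 14 libraries as well as with TCDD. Results are therefore given also from a second fit that includes the score, called the score term below, which uses part of the difference between the exposures itself; the part of the axis in the results was not tested.

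**Figure D1:**
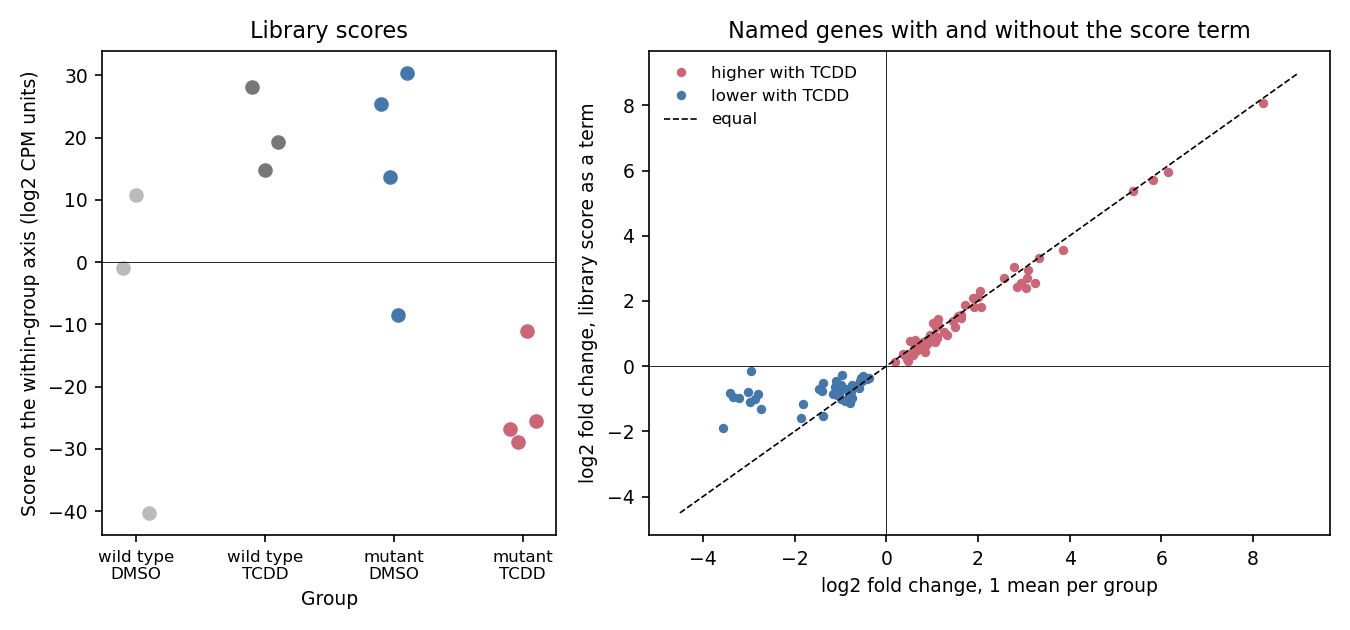
Left, the score of each library (1 point each) on the first within-group axis, in log2 CPM units, for the 4 groups. Right, the log2 fold change with TCDD in mutants of each named gene without and with the library score as a term, where the dashed line marks equal values. Mutant DMSO libraries scored from -8.48 to 30.4 and mutant TCDD libraries from -28.9 to -11.1, and the largest falls lie far above the dashed line while the largest rises lie close to it.

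TCDD changed a large share of the expressed genes of the mutants, mostly by small steps. It raised 3524 of 20098 genes (17.5%) and lowered 3729 (18.6%), or 36.1% in either direction. Each count of called members of a gene list below is to be read against these shares. CPM values of the exposure groups did not overlap for 37.3% of tested genes. Log2 correlations between libraries were 0.979 to 0.99 among DMSO libraries, 0.988 to 0.993 among TCDD libraries and 0.944 to 0.973 between the exposures, so every between-group pair was less alike than any within-group pair. The median called rise was 0.53 and the median called fall -0.61. Among the rises, 90% stayed under 2-fold, 354 reached 2-fold, 39 reached 4-fold and 14 reached 8-fold. Large falls outnumbered large rises, with 904 genes at 2-fold, 201 at 4-fold and 36 at 8-fold. The genes that rose took 22.6% of all counts in DMSO libraries and 32% in TCDD libraries, and the genes that fell took 33.1% and 23.9%. With the library score as a term 899 of the rises and 1148 of the falls were still called in the same direction. That fit called 4.79% of all genes higher and 6.27% lower. List counts given below with the score term are to be read against those 2 shares. Leaving out each mutant library in turn left 2341 rises and 2705 falls called every time.

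The chance of a call depended on depth. Of 3139 genes under 1 CPM on average in mutants, 3.89% rose and 6.5% fell, and their median SE was 0.46. Between 1 and 10 CPM the shares were 13.8% and 14.3%. Between 10 and 100 CPM they were 25.1% and 23.5%. Among 2003 genes above 100 CPM, 23.6% rose and 33.9% fell, with a median SE of 0.08. Called changes were also smallest there, with a median rise of 0.40 and a median fall of -0.41, against 1.40 and -1.62 under 1 CPM.

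The largest rise among the named genes was that of cyp1a, from the family 1 cytochrome P450 genes, whose products oxidise aromatic hydrocarbons. cyp1a (ENSDARG00000098315) measured 14.2, 19.8, 15.7 and 17 CPM with DMSO and 4899, 5160.3, 4590.2 and 5221 CPM with TCDD, a rise of 8.21 ± 0.12 (adjusted p = 8.23e-18). cyp1c1 measured 11.3, 13.4, 12.5 and 9.68 CPM with DMSO and 753, 622, 573 and 724 CPM with TCDD. cyp1c2 went from 4.45, 6.74, 4.15 and 4.65 CPM to 206, 218, 204 and 212 CPM. All 3 genes were high in every TCDD library and low in every DMSO library. The rises of cyp1c1 and cyp1c2 were 5.83 ± 0.13 and 5.38 ± 0.13, and reads of these paralogs may be hard to assign to either. cyp1d1, a family member known in zebrafish for its weak response to AHR ligands, measured 21.9 to 27.9 CPM with DMSO and 26.2 to 31.5 CPM with TCDD, with overlap and a log2 difference of 0.19 ± 0.12 (adjusted p = 0.213).

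The repressors and partners of the receptor moved in both directions. ahrra (ENSDARG00000099702), a repressor of AHR, held 6, 13, 5 and 4 counts with DMSO and 544, 509, 375 and 619 counts with TCDD, a rise of 6.14 ± 0.21. Its paralog ahrrb stayed near the detection limit, with 2, 0, 4 and 1 counts against 16, 7, 20 and 15 counts, and rose by 2.93 ± 0.62 (adjusted p = 0.00157). tiparp, an ADP-ribosyltransferase that also restrains the receptor, went from 15.1, 15, 12.5 and 13.4 CPM to 44.5, 43.3, 45.6 and 49.4 CPM, a rise of 1.71 ± 0.10. The receptor gene ahr2 rose by 0.62 ± 0.08, from 249 to 271 CPM up to 382 to 422 CPM. arnt2, which encodes a partner of the receptor, fell by 0.53 on the log2 scale, from 228 to 257 CPM down to 148 to 185 CPM. Of 9 receptor and partner genes tested, 4 rose (44.4%) and 2 fell (22.2%), against 17.5% and 18.6% of all genes. Across the 12 tested genes of the AHR battery, which earlier work on TCDD chose for its induction, 11 rose and none fell, with a median of 2.32 against 0.005 over all genes; the score term left 9 called, without ahrrb and nqo1.

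**Figure D2:**
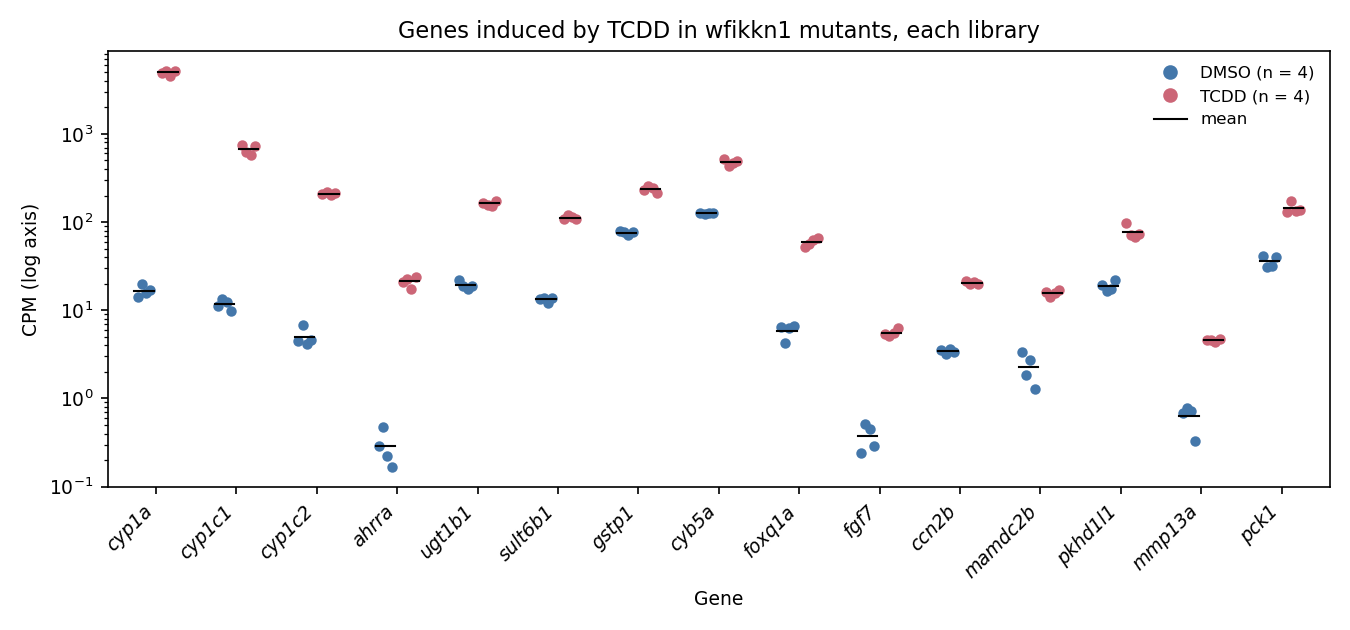
CPM (log axis) of 15 genes that rose with TCDD, with 1 point per mutant library and a line at the mean of the 4 libraries of each exposure. In each of the 15 genes the lowest TCDD library lies above the highest DMSO library, which the choice of genes by fold or by p required or favoured. CPM values of the groups did not overlap for 37.3% of all tested genes. cyp1a went from 14.2 to 19.8 CPM up to 4590.2 to 5221 CPM.

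Enzymes of the later steps of detoxification rose in single members rather than across their families. UDP-glucuronosyltransferases attach glucuronic acid, and ugt1b1 measured 21.9, 19, 17.3 and 18.6 CPM with DMSO and 166, 158, 152 and 175 CPM with TCDD, a rise of 3.09 ± 0.11. ugt1b5 rose by 2.07 ± 0.11 and ugt1ab by 0.95 ± 0.13. Of 21 family members tested, 4 rose (19%) and 2 fell (9.52%), against 17.5% and 18.6% of all genes. These genes share exons at the ugt1 locus in zebrafish, so that reads can be hard to assign between them. sult6b1, a sulfotransferase, went from 13.5, 13.9, 12.2 and 13.8 CPM to 108, 119.6, 113 and 108 CPM, a rise of 3.07 ± 0.16. Of 14 sulfotransferases 2 rose and 2 fell; the other rise, of sult2st1, was 0.63 ± 0.10. Summed over their lists, UDP-glucuronosyltransferases went from 123 ± 6.07 to 405 ± 33.6 CPM and sulfotransferases from 204 ± 8.78 to 318 ± 13.2 CPM (SD, n = 4 libraries each).

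Glutathione S-transferases, which conjugate glutathione, had 6 rises and no fall among 17; the rises numbered 3 without DMSO replicate 3 or without TCDD replicate 2. gstp1 went from 78.6, 76.6, 72.2 and 77 CPM to 231, 254, 246 and 213 CPM, a rise of 1.63 ± 0.11, and mgst3b rose by 0.58 ± 0.10. Only 2 of the list's rises kept their call with the score term. The list of oxidative stress and NRF2 genes had 7 rises and no fall among 20, and 1 rise with the score term. nfe2l2b, which encodes a factor related to NRF2, rose by 1.56 ± 0.13. hmox1a, a heme oxygenase, rose by 1.63 ± 0.19, from 3.34 to 5.27 CPM up to 9.83 to 16.9 CPM. nqo1, a quinone reductase, rose by 0.48 ± 0.14 (adjusted p = 0.0149), but its groups overlapped, from 16.9 to 22.4 CPM and from 21.5 to 30.1 CPM, and its call was lost without TCDD replicate 2 or replicate 4 (log2 difference 0.41 in both cases).

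P450s outside family 1 showed few called members. Of 38 P450 genes of families 2 to 4, 5 rose (13.2%) and 3 fell (7.89%), below the shares over all genes in both directions. Their levels were low, with a sum of 391 CPM over the list with DMSO. Among all genes between 1 and 10 CPM the shares were 13.8% and 14.3%. cyp3a65 rose by 1.03 ± 0.22, from 0.992 to 1.74 CPM up to 2.59 to 3.22 CPM, and cyp2aa9 by 0.52 ± 0.12. cyb5a, the cytochrome b5 that donates electrons to P450s, measured 127, 123, 127 and 128 CPM with DMSO and 518, 429, 468 and 494 CPM with TCDD, a rise of 1.92 ± 0.12. Of 40 ABC transporters, which pump substrates with ATP, 4 rose (10%) and 13 fell (32.5%), and the falls numbered 8 without DMSO replicate 1 or TCDD replicate 1 and 7 without TCDD replicate 4. abcg2c rose by 0.63 ± 0.11 and abcb5 by 0.36 ± 0.06. With the score term 2 ABC transporters rose and 1 fell. Of 21 organic anion and cation transporters, 5 rose (23.8%) and 4 fell (19%), with 3 rises without DMSO replicate 2, 3 or 4 or without TCDD replicate 1. slco2a1, a prostaglandin carrier, rose by 1.46 ± 0.18 and slc22a6l by 0.75 ± 0.12.

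Several of the largest rises lay outside drug metabolism, in transcription factors, growth factors and matrix. foxq1a, a forkhead transcription factor, went from 6.38, 4.21, 6.36 and 6.59 CPM to 51.5, 56.5, 62.1 and 66.2 CPM, a rise of 3.33 ± 0.14. Its paralog foxq1b rose by 1.07 ± 0.17, from 4.21 to 6.45 CPM up to 9.31 to 13.3 CPM. fgf7, a fibroblast growth factor for epithelia, went from 0.242, 0.513, 0.451 and 0.288 CPM to 5.32, 5.12, 5.47 and 6.32 CPM, a rise of 3.86 ± 0.23. The groups were far apart for each of these genes. spry1, an inhibitor of FGF signalling, rose by 1.05 ± 0.14. Of 29 FGF pathway genes, 8 rose (27.6%) and 4 fell (13.8%), and 3 rose and 2 fell with the score term.

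Single genes of matrix and vessels rose, while lists of matrix and vascular genes, counted further on, had both rises and falls. Not all genes named here are members of those lists. ccn2b, a matricellular protein also called connective tissue growth factor, went from 3.58, 3.22, 3.61 and 3.38 CPM to 21.3, 20.1, 21 and 19.7 CPM, a rise of 2.57 ± 0.12. mamdc2b, a proteoglycan of the MAM family, rose by 2.79 ± 0.23 and thbs1b, a thrombospondin, by 0.88 ± 0.06, from 268 to 283 CPM up to 494 to 524 CPM. and3, an actinodin of the fin fold in fish, rose by 1.06 ± 0.10. mmp13a and mmp9, a collagenase and a gelatinase, rose by 2.86 ± 0.24 and 1.14 ± 0.20; mmp13a stayed low, at 0.33 to 0.769 CPM with DMSO and 4.4 to 4.77 CPM with TCDD. vwf, the clotting factor made by endothelium, rose by 1.90 ± 0.19, and plvapa, a protein of fenestrated endothelium, rose from 1.79 to 2.84 CPM up to 5.34 to 8.63 CPM (adjusted p = 4.58e-05). pkhd1l1, a large fibrocystin-like membrane protein, went from 19.5, 16.7, 17.3 and 22 CPM to 98.7, 71.8, 67.4 and 72.9 CPM, a rise of 2.04 ± 0.16. Each of these genes kept its call with the score term.

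Among genes for cathepsins and for proteasome subunits, rises were called in a larger share than the 17.5% over all genes. Of 16 cathepsins, the proteases of the lysosome, 9 rose and none fell (median 0.40), and 4 kept the call with the score term. ctsl.1 rose most, by 3.04 ± 0.29, from 0.29 to 0.953 CPM up to 5.47 to 7.93 CPM. Of 36 proteasome subunits tested, 24 (66.7%) rose and none fell, with a median of 0.50, and 6 rises remained with the score term. psma3, a subunit of the core particle, went from 25.8, 28.5, 23.5 and 28.2 CPM to 46.1, 55.2, 58.2 and 47.2 CPM, a rise of 0.96 ± 0.13. psmd2, of the regulatory particle, rose by 0.80 ± 0.12. The summed level of the proteasome list was 1822 to 2006 CPM with DMSO and 2274 to 2554 CPM with TCDD, without overlap. In wild type, TCDD raised 1 proteasome subunit and lowered 2, against 8.84% higher and 5.75% lower over all genes. The difference between the lines was called for 4 of the 36 subunits, all with a larger effect in mutants, against 1.85% of all genes. The all-gene count of such larger effects ran from 132 to 609 with single libraries left out. With the score term no difference was called for any gene. The list of lysosome biogenesis genes, by contrast, had 7 rises and 7 falls among 22, with 4 rises without DMSO replicate 2 or without TCDD replicate 2. It had 1 rise and 4 falls with the score term.

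Genes of respiration rose widely. Of 76 nuclear genes for subunits of the respiratory chain, 49 (64.5%) rose and none fell, with a median of 0.63, and with the score term 17 rose and 1 fell. atp5fa1, the alpha subunit of ATP synthase, went from 364, 377, 363 and 413 CPM to 631, 738, 641 and 677 CPM, a rise of 0.82 ± 0.10. atp5po, another subunit, rose by 0.77 ± 0.08 and sdha, of succinate dehydrogenase, by 0.63 ± 0.08. The summed level of the list was 3710.4 to 3769 CPM with DMSO and 5172 to 5453 CPM with TCDD. Of the 13 protein genes of the mitochondrial genome 7 rose and none fell, and all 7 calls held with the score term. mt-atp6 measured 1346, 1394, 1405 and 1355 CPM with DMSO and 2166, 2221, 2260.0 and 2173 CPM with TCDD, a rise of 0.68 ± 0.06. Wild-type embryos had 12 rises and 2 falls among the nuclear subunits, against 8.84% higher and 5.75% lower over all genes. The difference between the lines was called for 6 of the 76, again with larger effects in mutants, against 1.85% of all genes, and for none with the score term.

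The machinery of protein synthesis shared this direction. Translation factors had 31 rises and 4 falls among 61 tested, with a median of 0.29, and 13 rises and 3 falls with the score term. eef2b, an elongation factor, went from 2606, 3009, 2770.3 and 2915 CPM to 4851, 5933, 5609 and 5113 CPM, a rise of 0.93 ± 0.11. eif3i, an initiation factor subunit, rose by 1.09 ± 0.14 and eef1a1l1, an elongation factor, by 0.71 ± 0.09. Mitochondrial ribosomal proteins had 32 rises and 2 falls among 65 (median 0.41), but 2 rises and 2 falls with the score term. mrpl2 rose by 0.74 ± 0.13, while mrps25 was 1 of the 2 that fell, by 0.41 on the log2 scale. Cytosolic ribosomal proteins had 64 rises and 1 fall among 84, with a summed level of 13958 to 14020.3 CPM with DMSO and 19763 to 20387 CPM with TCDD; 24 rises and no fall remained with the score term. In wild type 40 of the 84 were called higher and 0 lower, against 8.84% and 5.75% of all genes. The difference between the lines was called for 0 of them (median difference 0.17).

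The stress lists of the endoplasmic reticulum and of chaperones leaned upward. Of 18 genes of the unfolded protein response 8 rose and 3 fell; ddit3, a factor of prolonged stress, rose from 2.61 to 3.56 CPM up to 4.98 to 7.87 CPM (adjusted p = 3.57e-04). pdia6, a disulfide isomerase, rose by 0.48 ± 0.09, and hspa5, the chaperone BiP, by 0.46 ± 0.11. hspa5 lost its call with the score term, as did all but 2 of the list's rises. Heat shock and chaperone genes had 9 rises and 2 falls among 25, and p53 targets 6 rises and 1 fall among 13; 3 and 1 of these rises kept their call with the score term.

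Sugar metabolism changed in parts. pck1, the rate-limiting enzyme of gluconeogenesis, went from 41, 31.2, 31.7 and 40.2 CPM to 129, 174, 134 and 138 CPM, a rise of 1.89 to 2.07 with any 1 mutant library left out (adjusted p = 1.71e-07 with all). fbp1a, which acts later in the same pathway, rose by 0.87 ± 0.13. Of 21 genes of gluconeogenesis and of pyruvate dehydrogenase 5 rose and 5 fell, with 3 falls without DMSO replicate 1 or without TCDD replicate 2 or 3; pdhb, a subunit of that complex, rose by 0.50 ± 0.09, and pdk4, a kinase that inhibits it, fell by 0.37 on the log2 scale. Glycolysis genes had 14 rises and 6 falls among 29, and 2 rises and 4 falls with the score term. ldhba, a lactate dehydrogenase, rose by 0.84 ± 0.13 and lost its call with the score term, as did pdhb and pdk4. The list of gluconeogenesis and pyruvate dehydrogenase had 2 rises and 1 fall with that term. Sterol synthesis genes had 1 rise and 6 falls among 24, with 3 falls without DMSO replicate 3 and 1 with the score term.

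**Figure D3:**
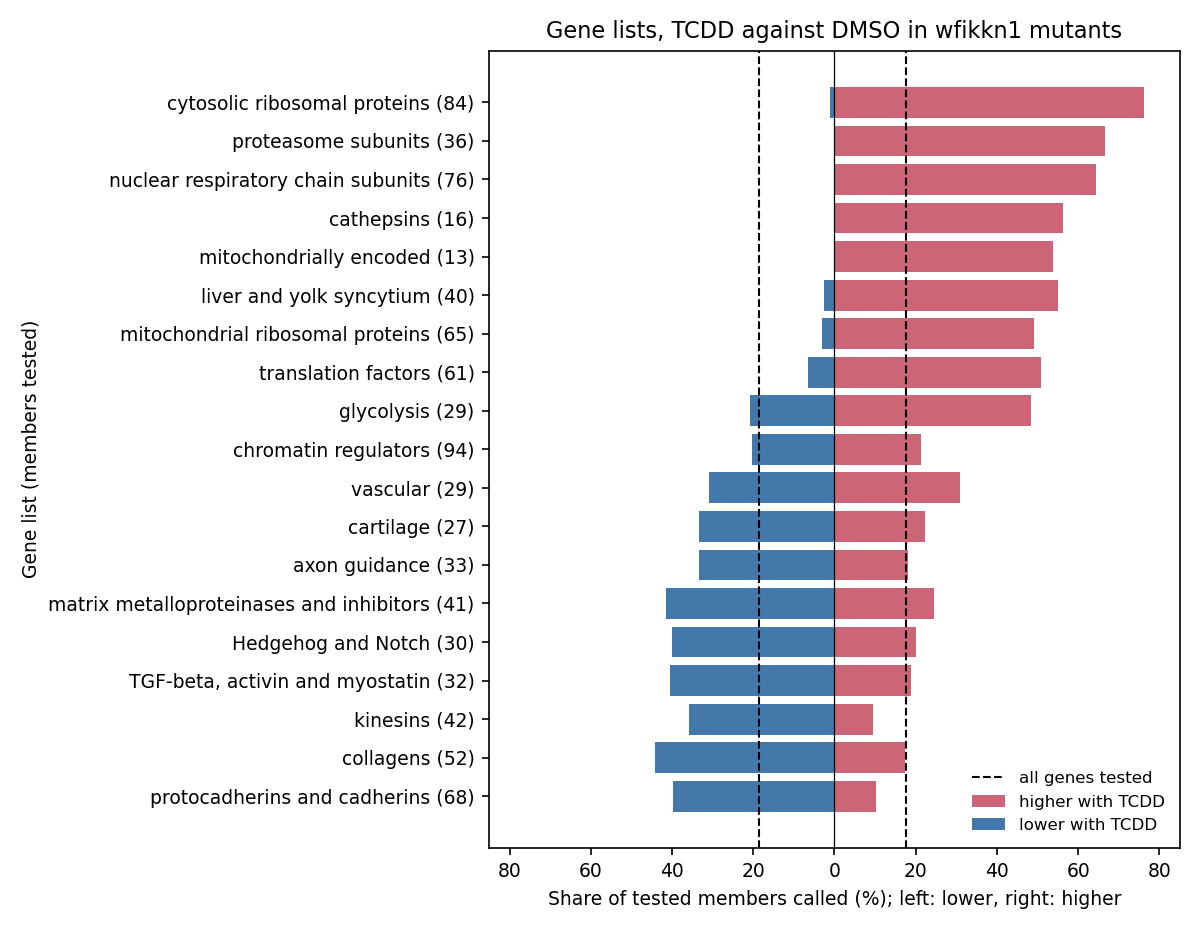
Share (%) of the tested members of 19 gene lists called higher (right) or lower (left) with TCDD in mutants, with the number tested in parentheses; dashed lines mark the shares over all genes tested, 17.5% higher and 18.6% lower. Cytosolic ribosomal proteins (76.2% higher) and proteasome subunits (66.7% higher) lie at the top, and collagens (44.2% lower) and cadherins (39.7% lower) near the bottom.

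The falls of smallest p were about 2-fold or less. nat16 (ENSDARG00000086222), an N-acetyltransferase, went from 498, 450.5, 445 and 522 CPM to 234, 209.6, 229.7 and 239 CPM, a fall of 1.07 on the log2 scale (-1.07 ± 0.09, adjusted p = 1.41e-06). lmnb2, a lamin of the nuclear envelope, went from 1307, 1189, 1346 and 1193 CPM to 745, 721, 727 and 777 CPM (-0.76 ± 0.07). thrb, the thyroid hormone receptor beta, went from 200.2, 191, 192 and 204 CPM to 117, 119, 111 and 118 CPM (-0.76 ± 0.07). The TCDD libraries agree closely with each other in these 3 genes, which a choice by smallest p favours. uhrf1, needed to maintain DNA methylation, measured 311 to 337 CPM with DMSO and 181 to 209 CPM with TCDD (-0.75 ± 0.07). mbd1a, which binds methylated CpG, changed by -0.84 ± 0.08. igf2bp1, an RNA-binding protein of embryonic tissue, went from 2960.2, 2426, 2369.6 and 2842 CPM to 1354, 1225, 1322 and 1380.1 CPM (-1.06 to -0.94 with any 1 mutant library left out). gtf2h4, a subunit of the general factor TFIIH, changed by -1.17 ± 0.12, fzd4, a Wnt receptor, by -1.03 ± 0.10, mtmr11, a myotubularin-related protein, by -0.88 ± 0.09 and nexmifb by -0.77 ± 0.07. The choice of these 10 genes required no overlap between the groups. All 10 were still called with the score term, at -0.88 to -0.58.

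**Figure D4:**
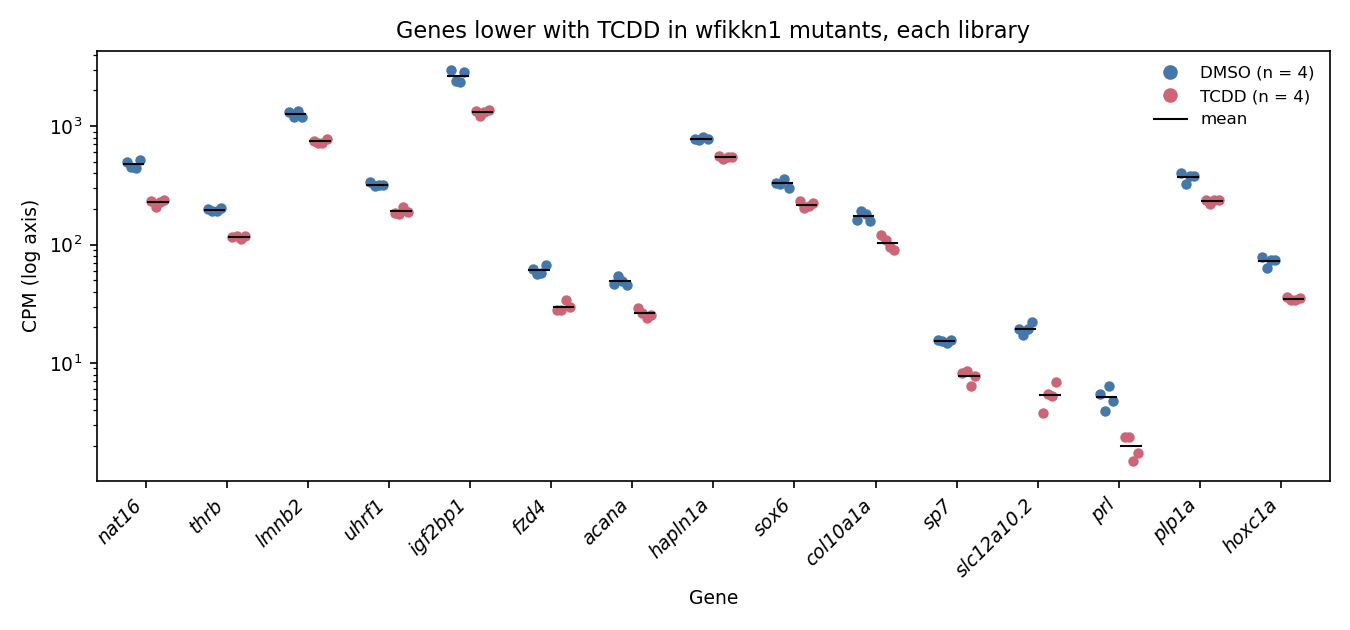
CPM (log axis) of 15 genes that fell with TCDD, with 1 point per mutant library and a line at the mean of the 4 libraries of each exposure. For each of the 15 genes the highest TCDD library lies below the lowest DMSO library. The choice by smallest p required this for nat16, thrb, lmnb2, uhrf1, igf2bp1 and fzd4. The other genes were chosen by small p within their lists, which favours it. CPM values of the groups did not overlap for 37.3% of all tested genes. nat16 went from 445 to 522 CPM down to 209.6 to 239 CPM.

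Cartilage and bone genes included falls of well-known members. Of 27 cartilage genes 6 rose and 9 fell, and with the score term 1 rose and 8 fell. acana, which encodes the proteoglycan aggrecan, went from 46.2, 54.6, 49 and 45.8 CPM to 29.2, 26.2, 24.2 and 25.2 CPM (-0.90 ± 0.10), and its paralog acanb changed by -1.82 ± 0.21, from 5.77 to 10.8 CPM down to 2.29 to 2.59 CPM. sox5 and sox6, transcription factors of chondrocytes, changed by -0.46 ± 0.06 and -0.59 ± 0.07. hapln1a, a link protein that joins aggrecan to hyaluronan, measured 766 to 806 CPM with DMSO and 529 to 562 CPM with TCDD (-0.52 ± 0.06). matn4, a matrilin, went the other way, from 597 to 650.1 CPM up to 894 to 975 CPM, a rise of 0.59 ± 0.08. Of 12 bone genes 3 rose (25%) and 4 fell (33.3%). sp7, the osteoblast transcription factor osterix, went from 15.7, 15.5, 14.8 and 15.7 CPM to 8.28, 8.6, 6.44 and 7.76 CPM (-0.99 ± 0.14). col10a1a, a collagen of early bone in fish, changed by -0.75 ± 0.10, and msx2b, a homeobox gene, rose by 0.78 ± 0.10. These cartilage and bone genes kept their calls with the score term, and col10a1a, acana and sp7 fell also in wild type. acanb did not fall there: it changed by 0.62 in wild type, and the difference between the lines was called (-2.43). With the score term no difference between the lines was called for any gene.

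The collagen family as a whole leaned downward, with 23 falls and 9 rises among 52 (44.2% and 17.3%), 5 rises without TCDD replicate 2, and 13 falls and 2 rises with the score term. Its summed level did not follow the count: it was 21817 to 23026 CPM with DMSO and 22490.5 to 24443 CPM with TCDD. col4a6, of basement membranes, went from 1121 to 1204 CPM down to 771 to 795 CPM (-0.57 ± 0.08), col4a1 changed by -1.07 ± 0.14 and col18a1b by -0.82 ± 0.11. Other basement membrane and fin fold genes had 10 rises (29.4%) and 8 falls (23.5%) among 34, and 6 rises and 1 fall with the score term. Matrix metalloproteinases, ADAMTS proteases and their inhibitors had 10 rises and 17 falls among 41, and 3 rises and 6 falls with the score term.

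Falls among cadherins, guidance genes and kinesins took a larger share than the 18.6% over all genes. Of 68 protocadherins and cadherins 27 (39.7%) fell and 7 rose, with a median of -0.24. pcdh2ab9 changed by -1.39 ± 0.20, from 8.75 to 18.5 CPM down to 3.79 to 5.88 CPM, while pcdh10a rose by 0.66 ± 0.09; clustered protocadherins share exons, which limits the assignment of reads. Of 33 axon guidance genes 11 fell and 6 rose. unc5b, a netrin receptor, went from 57.4, 44, 34.2 and 61.5 CPM to 16.8, 15.6, 21.2 and 17.4 CPM (-1.47 ± 0.19), dcc, another netrin receptor, changed by -1.09 ± 0.18, and robo1, a Slit receptor, rose by 0.54 ± 0.07. Kinesins, the motors of microtubules, had 15 falls and 4 rises among 42. With the score term, which called 6.27% of all genes lower, the falls numbered 5 of the 68 cadherins, 1 of the 33 guidance genes and 5 of the 42 kinesins, and the call of dcc was lost (log2 difference -0.45).

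Ligands, receptors and inhibitors of the signalling pathways divided. Of 32 genes of TGF-beta, activin and myostatin signalling, the pathway of the ligands that wfikkn1 is known to bind, 13 fell and 6 rose. The ligand gene tgfb3 rose by 0.67 ± 0.11 and fstl3, which encodes a secreted inhibitor of activin, rose from 3.24 to 4.94 CPM up to 8.08 to 12 CPM (adjusted p = 2.11e-04). The receptor genes acvr2ba and tgfbr1b changed by -1.37 ± 0.25 and -3.40 ± 0.57. Neither kept its call with the score term (log2 differences -0.52 and -0.82). Among the 32 genes 2 rises and 2 falls remained, near the 4.79% higher and 6.27% lower over all genes with that term. The summed level of the list was 1467 to 1563 CPM with DMSO and 1252 to 1320.3 CPM with TCDD.

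Of 30 BMP pathway genes 11 rose and 6 fell, and 4 rose and 4 fell with the score term. id1, a direct target of BMP signalling, rose by 0.62 ± 0.09, from 79.5 to 89.8 CPM up to 127 to 134 CPM, and bambia, a decoy receptor, by 0.89 ± 0.13. The receptor gene bmpr2a changed by -0.97 ± 0.17 and lost its call with the score term (-0.27). Wnt and R-spondin genes had 13 rises and 8 falls among 45. rspo3, a ligand that enhances Wnt signalling, rose from 1.53 to 2.68 CPM up to 3.62 to 5.13 CPM (adjusted p = 3.35e-04). notum1b, a secreted inhibitor, rose by 1.09 ± 0.13 and axin2, a feedback target, by 0.43 ± 0.08. lgr4, a receptor of R-spondins, changed by -0.50 ± 0.08. Hedgehog and Notch genes had 12 falls and 6 rises among 30, with 3 rises without replicate 2 or replicate 3 of either exposure; the receptor gene notch2 changed by -0.55 ± 0.08 and dlc, a Delta ligand, by -1.12 ± 0.16, from 36.3 to 61.7 CPM down to 19 to 25.6 CPM. With the score term 3 Wnt genes rose and 1 fell, and 2 Hedgehog and Notch genes rose and 4 fell.

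Markers of most tissues of the embryo were measured, and their lists moved by different amounts. Liver and yolk syncytium genes had 22 rises and 1 fall among 40, although their summed level overlapped, at 19186 to 24794 CPM with DMSO and 22611 to 25021 CPM with TCDD; 8 rises remained with the score term. apoea, an apolipoprotein of the yolk syncytium, went from 67.4, 65.9, 68.7 and 65 CPM to 155, 145, 194 and 145 CPM, a rise of 1.26 ± 0.12. Hatching gland genes had 5 rises and no fall among 10, and 3 rises with the score term. Lists can share members, and the largest rise was 3.04 in both the hatching gland and the cathepsin list. Lens genes had 13 rises and 2 falls among 28 and fast muscle genes 16 and 2 among 31; 3 and 6 of the rises kept their call with the score term. Their summed levels were 2475 to 2759 and 3246 to 3519.8 CPM for lens, and 65921 to 71914 and 79690.5 to 87798 CPM for fast muscle, with DMSO and TCDD.

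Epidermal genes had 6 rises and 1 fall among 24. krt1-19d, a keratin, rose by 1.33 ± 0.15, from 12.3 to 17.2 CPM up to 34.2 to 42.3 CPM. Ionocytes, the salt-transporting cells of fish skin, had 4 rises and 4 falls among 18 (22.2% each). Their gene slc12a10.2, a sodium chloride cotransporter in zebrafish, fell furthest, from 19.3, 17.3, 19.2 and 22.3 CPM to 3.81, 5.51, 5.23 and 6.94 CPM (-1.86 ± 0.19), and prl, the hormone prolactin, which governs salt uptake in fish, changed by -1.37 ± 0.25, from 3.96 to 6.45 CPM down to 1.48 to 2.38 CPM. Both genes kept their call with the score term and fell in wild type as well, by 1.20 and 1.44 on the log2 scale. Pigment cell genes had 6 rises (28.6%) and 3 falls (14.3%) among 21, with 3 rises without DMSO replicate 3. tyrp1b, of melanin synthesis, rose by 0.67 ± 0.07, and pnp4a, of iridophores in fish, changed by -0.79 ± 0.15. With the score term epidermal genes had 2 rises and 0 falls, ionocyte genes 2 and 2, and pigment cell genes 1 and 2.

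Neuronal genes had 4 rises and 7 falls among 26, and their summed level was 7456 to 7944 CPM with DMSO and 6572 to 6813 CPM with TCDD. nefma, a neurofilament gene, rose by 1.06 ± 0.12. Glial genes had 4 rises and 5 falls among 15, and the falls numbered 1 without TCDD replicate 3, 2 without DMSO replicate 1, DMSO replicate 3 or TCDD replicate 4, and 3 without DMSO replicate 2. plp1a, a myelin proteolipid, went from 326 to 406 CPM down to 218 to 239 CPM (-0.67 ± 0.08). Photoreceptor genes had no rise and 3 falls among 24 (12.5%), under the 18.6% lower over all genes, with a median of 0.11. Of 29 heart genes 12 rose and 4 fell, but with the score term none rose and 1 fell; tbx20, a cardiac transcription factor, changed by -0.98 ± 0.12 and kept its call. The summed heart list went from 9054 to 10609.6 CPM down to 7657 to 8437 CPM, opposite to the majority of its called members.

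Vascular genes had 9 rises and 9 falls among 29, erythroid genes 9 and 6 among 27 and leukocyte genes 4 and 6 among 25, against 17.5% higher and 18.6% lower over all genes. stab1, a scavenger receptor of endothelium, changed by -1.12 ± 0.13 and hbbe1.1, an embryonic globin, rose by 1.14 ± 0.22, from 38.2 to 62.2 CPM up to 94.2 to 143 CPM. Globin genes lie in families of near copies, so that reads may be split between them. In the remaining tissue lists, slow muscle had 6 rises and 2 falls among 17, notochord 4 and 1 among 15, kidney tubule 1 and 5 among 16, exocrine pancreas and gut 0 and 1 among 7, and myogenic regulators 4 and 3 among 20. The slow muscle rises numbered 3 without DMSO replicate 1 or 3, and the kidney tubule falls 3 without DMSO replicate 2. Hox genes had 10 rises and 7 falls among 43, with 6 rises without DMSO replicate 4 and 4 falls without DMSO replicate 1 or TCDD replicate 3, and hoxc1a was lowered, from 63.6 to 78.7 CPM down to 34.2 to 35.8 CPM (-1.06 ± 0.14). With the score term 1 neuronal gene rose and 5 fell, no glial gene rose and 3 fell, and 3 vascular genes rose and 2 fell. With that term erythroid genes had 5 rises and 0 falls, leukocyte genes 2 and 0, and kidney tubule genes 0 and 0. Slow muscle then had 0 and 2, notochord 0 and 1, exocrine pancreas and gut 0 and 1, myogenic regulators 0 and 0, and Hox genes 2 and 4.

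Other lists of cell functions gave counts to be read against 17.5% higher and 18.6% lower over all genes. Chromatin regulators had 20 rises and 19 falls among 94, with 13 rises without TCDD replicate 2, splicing factors 20 and 9 among 68, and kelch-like, HECT and cullin ligase genes 10 and 21 among 58. DNA replication and mitosis had 9 rises and 4 falls among 33. Circadian genes had 5 and 3 among 31, hypoxia genes 3 and 2 among 22, retinoic acid metabolism 4 and 3 among 18, and steroid and prostaglandin synthesis 2 and 1 among 8. With the score term chromatin regulators had 3 rises and 5 falls, and splicing factors 6 and 6. The ligase genes then had 1 and 3, and DNA replication and mitosis 2 and 1. Circadian and hypoxia genes then had 2 and 1 each, retinoic acid metabolism 1 and 1, and steroid and prostaglandin synthesis 2 and 0.

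The largest falls were ranked by fold and the falls described earlier by p, so their larger size follows from the choice. They varied several-fold among the DMSO libraries and went with the library scores. Those scores are themselves weighted sums over expressed genes of the same libraries. mri1 (ENSDARG00000075754), an enzyme of methionine salvage, measured 21.8, 12.9, 3.7 and 25 CPM with DMSO and 1.13, 0.662, 2.41 and 1.16 CPM with TCDD (-3.57 ± 0.49, adjusted p = 6.41e-05). zfhx4, a zinc finger homeobox factor, measured 83.3, 27.4, 11.6 and 124 CPM with DMSO and 10.3, 6.26, 9.22 and 9.62 CPM with TCDD (-2.79 ± 0.53). ism2a, a secreted isthmin, measured 33.6, 20, 11.4 and 32.2 CPM and then 3.38, 2.91, 4.45 and 3.76 CPM (-2.74 ± 0.34). In all 3 genes DMSO replicate 3, which scored lowest on the axis among DMSO libraries, was also the lowest DMSO library, and for mri1 and zfhx4 all 4 DMSO libraries stood in the order of their scores. The groups did not overlap, which the rule for the largest falls required.

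Other large falls were those of itchb, a ubiquitin ligase, at -3.34 ± 0.51, and the membrane metalloproteinases mmp24 and mmp15b at -3.22 ± 0.50 and -3.01 ± 0.51. Further ones were fnbp1a, which bends membranes, at -2.98 ± 0.42, ago1, an Argonaute of RNA silencing, at -2.95 ± 0.56, and pum2, a repressor of translation, at -2.87 ± 0.43. With the score term these falls shrank to -1.90 for mri1, -1.30 for ism2a, -1.11 for fnbp1a, -1.02 for pum2, -0.96 for mmp24 and -0.94 for itchb, still called, and to -0.85 for zfhx4, -0.80 for mmp15b and -0.15 for ago1, no longer called. Among the 758 genes of highest weight on the axis, 597 fell and 2 rose with TCDD in mutants, with a median of -1.13, whereas their median with TCDD in wild type was 0.98. Of the 904 falls of at least 2-fold, 441 were among these genes, against 1 of the 354 rises. Weights carry a sign, and only the positive end was counted, where lower scores with TCDD go with falls. Genes at the other end, where rises would lie, were not counted. Over all calls the median weight percentile was 32.5 for rises and 76.3 for falls. The score is a sum in which the 758 genes carry the highest weights. Their falls and the lower scores with TCDD are therefore not separate results. The part of the axis in these falls was not tested.

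The effect of TCDD in mutants was then set against its effect in wild type, from the same fit. In wild type TCDD raised 1777 genes (8.84%) and lowered 1156 (5.75%), 14.6% in all, from 3 libraries per exposure. Of the 3524 rises in mutants 537 were also called higher in wild type, 6 were called lower and 2981 were not called; of the 3729 falls 726 were called lower, 759 higher and 2244 not at all. The difference of the effects was tested directly and was called for 372 genes (1.85%) in the direction of a higher log2 effect in mutants and for 2044 (10.2%) in the direction of a lower one, 12% in all. The count of 372 moved widely with single libraries: it was 132 without wild-type TCDD replicate 1, 155, 234 and 237 without mutant TCDD replicates 2, 3 and 4, 160 without wild-type DMSO replicate 4, 222 and 224 without mutant DMSO replicates 2 and 4, and 609 without wild-type DMSO replicate 1. With the library score as a term the edgeR count fell to 0 in both directions, with 1506 genes (7.49%) at an unadjusted p under 0.05. DESeq2, without that term, called 832 and 2098. Wild-type scores on the axis were -0.987, 10.7 and -40.3 with DMSO and 28.1, 14.8 and 19.2 with TCDD, so that TCDD went with higher scores in wild type and lower scores in mutants.

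In the fit without the score term, several induced genes rose further in mutants than in wild type. Many of the named genes were chosen for large fold or small p in mutants, or for small p of the difference. That choice favours larger effects in mutants, among rises and falls alike. cyp1a rose by 7.32 ± 0.13 in wild type, where TCDD libraries measured 3186, 3092 and 3135 CPM, and its effect in mutants was larger by 0.89 ± 0.14 (adjusted p = 3.72e-04). pck1 rose by 0.92 ± 0.17 in wild type, to 65.3, 58.5 and 85.6 CPM, and its effect in mutants was larger by 1.08 ± 0.22. The mutant effect also exceeded that in wild type by 0.71 ± 0.16 for ugt1b1, by 0.51 ± 0.15 for tiparp, by 0.92 ± 0.18 for apoea and by 1.15 ± 0.35 for mmp13a (adjusted p = 0.0403). For cyp1c2, foxq1a, fgf7 and ccn2b the differences were -0.26, 0.13, -0.05 and 0.14 and were not called, which leaves differences of that size unresolved. Among the falls of smallest p, fzd4 differed by -1.11 ± 0.15 and gtf2h4 by -1.39 ± 0.17; in wild type fzd4 measured 44.3, 52.8 and 47.7 CPM with DMSO and 55.5, 45.1 and 52.9 CPM with TCDD. lmnb2 fell by 0.60 in wild type, with a difference of -0.16 that was not called. Of the largest falls, mmp24, itchb and zfhx4 rose in wild type by 2.43, 2.16 and 3.03, which gave differences of -5.65, -5.50 and -5.82.

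**Figure D5:**
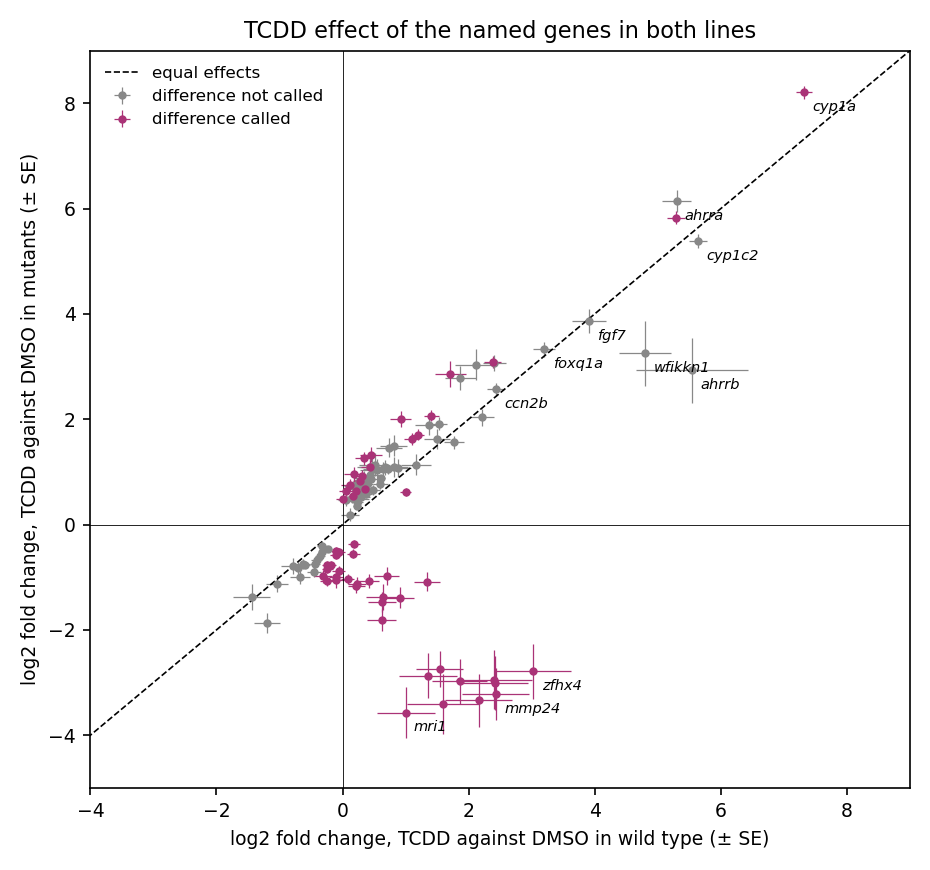
Log2 fold change (± SE) with TCDD in wild type (x axis) and in mutants (y axis) of the named genes, coloured by whether the difference of the effects was called; the dashed line marks equal effects. cyp1c2, foxq1a, fgf7 and ccn2b lie near the line. cyp1a and cyp1c1 lie above it, by 0.89 and 0.54, with the difference called. mri1, mmp24 and zfhx4 lie at about -3 in mutants and above 0 in wild type.

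The authors' deposited table for this comparison lists 7244 genes, 3458 higher and 3786 lower. Of these, 7130 were also called here, which is 98.4% of the authors' list and 98.3% of the calls made here, and none had the opposite sign. By the biotypes in the authors' deposited table, 7068 of its genes code for proteins, 92 are lincRNAs and 11 are miRNA genes.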

How the data were processed

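RNA came from whole embryos, with an integrity number above 8, and stranded poly(A) libraries were read from 1 end, per the labels' protocols. The authors deposited a table of unnormalised count values, made per the submitters' processing notes with cutadapt 1.8.1, HTSeq 0.12.4, HISAT2 2.2.0, SAMtools 1.10 and edgeR on GRCz11; the annotation release and strand setting are not given in the sources used here. The authors' deposited table of this comparison holds log2 ratios, log2 mean CPM, an F score, and p-value and FDR columns of an edgeR test, per the file headers, and served for gene names and to compare calls.

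All 14 libraries entered 1 edgeR model (edgeR 4.0.16, R 4.3.3) with a mean per group, TMM scaling, filterByExpr and quasi-likelihood F tests; Benjamini-Hochberg adjustment was used, and SE was taken from the fold change and F. The biological coefficient of variation came to 0.151, and 12422 genes were not tested. Symbols came from the authors' tables for 10902 IDs and from a table of gene names for 18822. The genes, lists and tests were chosen with earlier results of these data known; genes that share a family's symbol stem but not its function, such as S6 kinases among ribosomal proteins, were taken out of the lists after their values were seen. Named genes were wfikkn1, the AHR battery, the 15 largest rises and falls and the 10 of smallest p among called genes with mean log2 CPM of at least 1 and no overlap, up to 6 called and 2 other members per list, and the 10 smallest p of the difference; some were left out for length, and 1 is not reported here. For the library axis, group means were subtracted from log2 CPM (prior count 2) of 15143 genes and the leading singular vector was taken. Alternatives were limma-voom 3.58.1, DESeq2 1.42.0, RLE scaling, other filters, a replicate block, a term for early or late sample numbers, the score term, mutants alone, 2-fold and each library left out. The fit was tested on simulated counts, which held no library axis. Of changes set at 1.5-, 2- and 4-fold in mutants with TCDD, it recovered 40.8%, 68.9% and 92.6%. For the difference between lines it recovered 8.45%, 49.2% and 69.1%. Gene length, promoter and protein sequences were not analysed here.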

Additional observations from a re-analysis of the deposited data

Results flagged for a closer look

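The effect of TCDD in mutants differed from that in wild type for a number of the named genes, by the test of the difference itself in edgeR, given here as the log2 effect in mutants minus that in wild type. Among xenobiotic and metabolic genes the mutant log2 effect was higher for cyp1a by 0.89, cyp1c1 by 0.54, tiparp by 0.51, ugt1b1 by 0.71, ugt1b5 by 0.66, gstp1 by 0.53, slc22a6l by 0.63, abcg2c by 0.57 and pck1 by 1.08. Among genes of protein turnover and energy it was higher for psma3 by 0.78, atp5fa1 by 0.54, sdha by 0.41, mt-atp6 by 0.33, eef2b by 0.62 and pdia6 by 0.48. It also exceeded the wild-type effect for mmp13a by 1.15, notum1b by 0.65, robo1 by 0.37, apoea by 0.92 and krt1-19d by 0.88. Differences between -1 and 0 were -0.38 for ahr2, -0.47 for arnt2, -0.55 for pdk4, -0.83 for nat16, -0.50 for thrb, -0.60 for mbd1a, -0.58 for nexmifb, -0.90 for igf2bp1, -0.82 for mtmr11, -0.47 for col4a6, -0.41 for lgr4, -0.72 for notch2, -0.67 for tbx20 and -0.96 for hoxc1a. Larger differences in this direction were -1.11 for fzd4, -1.39 for gtf2h4, -2.43 for acanb, -1.50 for col4a1, -2.02 for acvr2ba, -1.68 for bmpr2a, -2.10 for unc5b, -2.43 for dcc, -2.30 for pcdh2ab9 and -1.35 for stab1. The most negative were -4.996 for tgfbr1b, -4.58 for mri1, -5.50 for itchb, -5.65 for mmp24, -5.43 for mmp15b, -4.84 for fnbp1a, -5.35 for ago1, -4.24 for pum2, -5.82 for zfhx4 and -4.29 for ism2a. With the library score as a term no difference was called. Many named genes were chosen for large fold or small p in the same mutant libraries, or for small p of the difference. That choice favours larger effects in mutants.

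In 12 of 242 groups examined, 121 named genes in 2 exposures, 1 library stood apart from the other 3 relative to the range of the group; chance flags about 1 in 20 groups. With DMSO, replicate 2 was low for foxq1a (4.21 CPM against 6.36 to 6.59), cyb5a (123 against 127 to 128) and cyp2aa9 (15.6 against 18.5 to 19.1). DMSO replicate 1 was low for ctsl.1 (0.29 against 0.865 to 0.953), replicate 3 was low for gtf2h4 (38.2 against 46.5 to 47.9), and replicate 4 was high for bambia (50.4 against 45.4 to 45.7). With TCDD, replicate 2 was low for sox5 (202 against 214 to 216) and plp1a (218 against 237 to 239) and high for fstl3 (12 against 8.08 to 8.42). TCDD replicate 3 was high for tgfbr1b (3.43 against 1.51 to 1.81) and dcc (6.3 against 4.54 to 4.82), 2 genes that went with the library score, and replicate 1 was high for ugt1ab (54.3 against 36.5 to 38.4).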

How the results depend on the processing

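Counts of 3524 higher and 3729 lower genes in mutants stayed within 1.5 times under RLE, no filter, CPM of at least 1, DESeq2 (3548 and 3956), limma-voom, sample numbers as a term and mutants alone; leaving out each mutant library gave 2748 to 3126 higher and 3084 to 3568 lower. With the library score as a term 963 rose and 1260 fell, and at least 2-fold left 354 and 904; the cause of the first was not tested. Same-numbered replicates correlated at -0.037, -0.096, -0.354 and -0.148, so no positive correlation by number was seen. Such correlations cannot tell whether samples of the same number were handled together. The replicate block gave 3335 and 3520. For the difference between lines, the 372 genes with a higher log2 effect in mutants became 571 with no filter, 779 with CPM of at least 1, 832 with DESeq2 and 0 with the score term, and 132 to 609 with a library left out; the 2044 with a lower, that is more negative, log2 effect became 0 with the score term and 1623 to 2233 with a library left out. Of 121 named genes, 120 kept direction and call under every alternative outside the score term that tested them, and 105 under all. No named gene reversed. Many of these genes were chosen for small p or large fold, which favours a stable call. Results of the gene lists were less stable: with the score term 98 moved by over 1.5 times and 30 did not. The most that moved under any other setting was 18, with mutants alone, where 110 did not. Over all calls, 66.4% of rises and 72.5% of falls were called each time a mutant library was left out. With the score term 25.5% and 30.8% kept their call. Depth limits genes under 1 CPM, and p-values measure the spread between dishes of 1 experiment.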
